A study of Mus musculus with 8 samples.

Results

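The genes of mTOR and AMPK nutrient sensing were followed in maps of H3K27ac, acetylation of histone H3 that marks promoters and enhancers in use. The 10 genes are Mtor, Rptor, Rictor, Tsc1, Tsc2, Rheb, Prkaa1, Prkaa2, Prkag1 and Prkag2, out of 21631 protein-coding genes on chromosomes 1 to 19 and X. Every H3K27ac interval in the gene body or within 20 kb on each side was taken, whatever its score. These regions held 399 of 253423 distinct intervals from EnPGC-1-treated cells and 151 of 81522 from DMSO-treated cells. The cells were CD8+ T cells purified from spleen and lymph nodes of C57BL/6 mice. They were stimulated with antibodies to CD3 and CD28 and kept for 48 h with EnPGC-1, which the labels class among PIPs, or with DMSO as the vehicle. Each treatment had 2 H3K27ac samples and 1 input, and DMSO-treated cells had 2 IgG samples, 8 samples in all. The values used here are 1 deposited list of intervals per treatment on mm10, so there is no spread between replicates and no test between treatments. The depth of each sample is unknown here, and what depth and calling add to the size of a list cannot be told apart from the treatment. Nothing in the labels says that samples came from separate animals.

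The mTOR kinase sits in a pair of complexes. With raptor it forms mTORC1, which drives protein and lipid synthesis when amino acids and growth factors are present, and with rictor it forms mTORC2, which phosphorylates AKT. The TSC1 and TSC2 proteins hold mTORC1 back by switching off the small GTPase RHEB. AMPK, built from a catalytic alpha, a scaffolding beta and a nucleotide-sensing gamma subunit, answers low cellular energy and restrains mTORC1 through TSC2 and raptor. In T cells, mTORC1 is known for supporting growth and glycolysis after stimulation, and AMPK for supporting survival when glucose is short.

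The EnPGC-1 list is the larger, with 165 Mb covered and a median score of 3.64, against 41.3 Mb and 2.16 in the DMSO list. Scores are the authors' deposited values per interval, read as −log10 of a q-value, and rank intervals only within their own list. The labelled cell type was looked for in the same lists. All 8 T cell genes checked had covered bases in both lists, from 4.69% at Cd3g to 39.0% at Zap70 in the EnPGC-1 list and from 0.796% at Cd3g to 7.36% at Zap70 in the DMSO list. Genes of other cell types were covered as well. In the EnPGC-1 list all 5 B cell genes had between 0.684% and 34.1% of bases covered, all 5 myeloid genes between 2.01% and 25.0%, and all 5 liver genes between 0.576% and 31.0%. In the DMSO list the highest values of these groups were 10.3%, 10.2% and 10.2%, and Ms4a1, Itgam and Alb had 0. The median coverage with EnPGC-1 and with DMSO was 10.4% and 1.92% for the T cell genes. It was higher for the B cell genes, at 27.9% and 4.43%. For the myeloid genes it was 8.73% and 2.04%, and for the liver genes 5.73% and 1.64%. The part of other cells in the values below was not tested.

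All 10 regions were covered more widely by the EnPGC-1 list than by the DMSO list. The ratio of covered bases, EnPGC-1 over DMSO, ran from 2.64 at Tsc2 to 7.10 at Rheb, with a median of 4.82. Over the 20453 protein-coding genes with any covered base in their own regions the median was 4.11, and the whole lists had a ratio of 4.00. Among those 20453 are 2905 genes with 0 covered bases in the DMSO list, which were placed at the top. They count in that median, in the share with a ratio of 2 or more and in the ratio percentiles below. None of the 10 genes is among them. A ratio of 2 or more was found at 10 of 10 genes, beside 91.6% of all genes, and a ratio below 1 at 0 of 10, beside 1.59%, so the counts are close to the background. Summed over the 10 regions the ratio was 3.81. The number of intervals was 2.64 times as high in the EnPGC-1 list (exact binomial 95% interval 2.19 to 3.21, counting error only), against 3.11 for the whole lists. The EnPGC-1 list was also reduced to its 81522 highest-scoring intervals, as many as the DMSO list holds. The median ratio of covered bases was then 1.67, and the ratio of interval numbers over the regions was 0.921. Since the whole lists are equal in number under this setting, a ratio of interval numbers near equality is set by it. The median ratio over all genes was not computed there.

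The genes fell into well covered and sparsely covered regions, and the 2 lists placed the same genes in each. Tsc2, Prkag1, Mtor, Prkag2, Rptor and Tsc1 lay above the median of all protein-coding genes in both lists, which was 8.37% of bases for EnPGC-1 and 1.99% for DMSO. Rheb, Prkaa1, Rictor and Prkaa2 lay below it in both. The span was from 46.1% at Tsc2 to 1.88% at Prkaa2 in the EnPGC-1 list and from 17.5% at Tsc2 to 0.279% at Prkaa2 in the DMSO list.

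**Figure D1:**
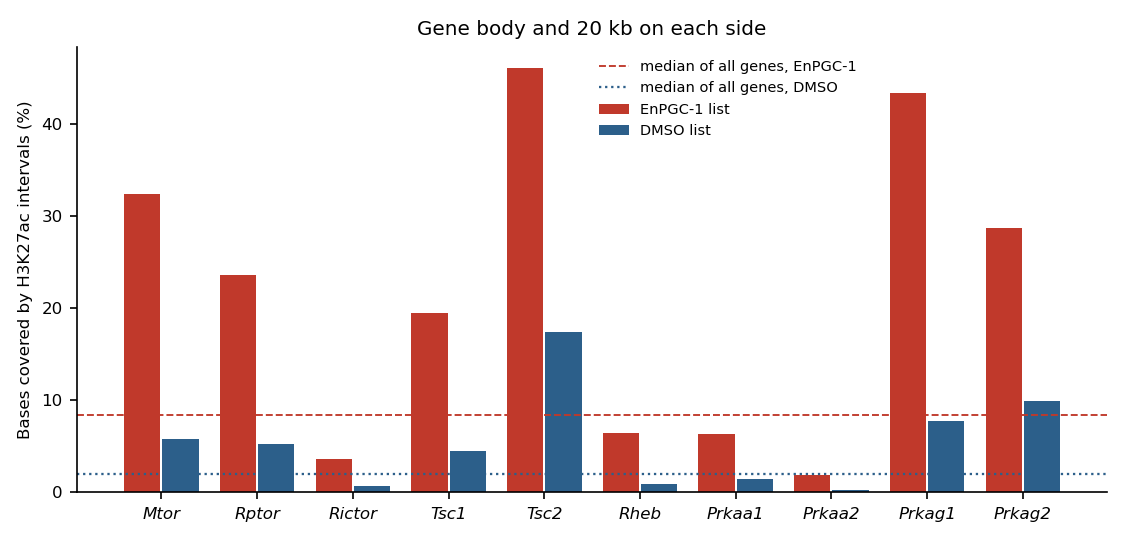
Percentage of bases covered by H3K27ac intervals (vertical axis) in the gene body and 20 kb on each side of each gene, with the EnPGC-1 list in red and the DMSO list in blue, 1 list per treatment. The dashed and dotted lines mark the medians of all protein-coding genes, 8.37% and 1.99%, and Rictor, Rheb, Prkaa1 and Prkaa2 lie below both.

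Coverage of the genomic surroundings differed from gene to gene as well. Outside the regions but within 500 kb of the gene, 24.0% of bases were covered around Tsc2 with EnPGC-1 and 6.35% with DMSO, less than in the Tsc2 region itself. Tsc2, Prkaa1, Prkag1 and Prkag2 exceeded their surroundings in both lists, and the other 6 genes lay below theirs in both lists. The widest shortfall was at Rheb, with 6.50% in the region and 26.7% around it in the EnPGC-1 list, and 0.917% and 8.07% in the DMSO list. The surroundings of Rheb include Prkag2, its neighbour on chromosome 5, and the flanks of those genes share 1 EnPGC-1 interval.

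**Figure D2:**
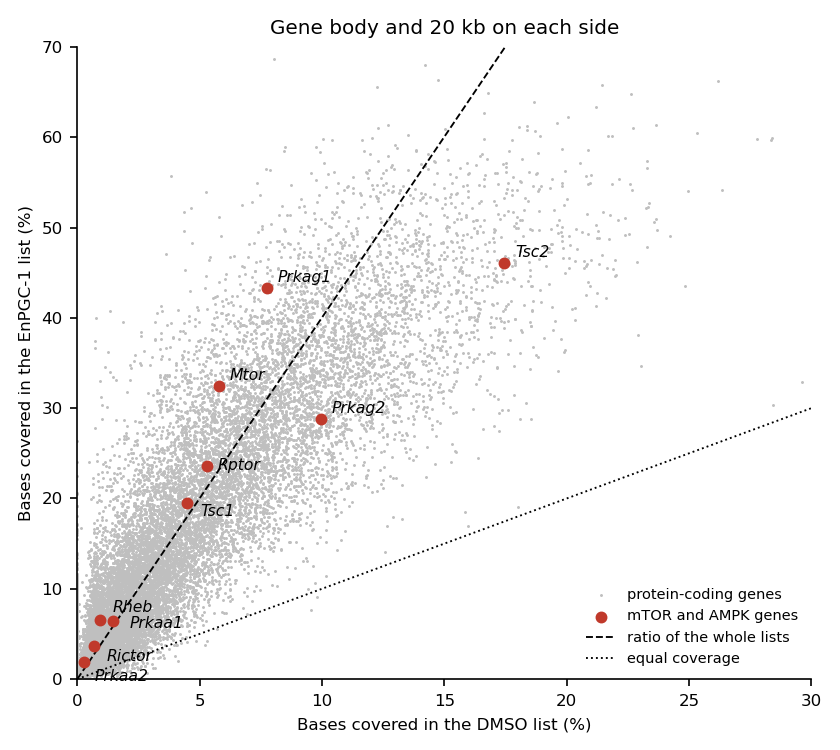
Percentage of bases covered in the DMSO list (horizontal axis) and in the EnPGC-1 list (vertical axis) for protein-coding genes (grey points, of which 4 lie beyond the axes) and the 10 mTOR and AMPK genes (red), over gene body and 20 kb on each side. The dashed line is the ratio of the whole lists, 4.00, and the dotted line equal coverage; Tsc2 and Prkag2 lie below the dashed line and the other 8 genes above it.

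At the start sites, 8 of 10 genes had an EnPGC-1 interval within 1 kb, beside 67.3% of all genes, and 3 of 10 a DMSO interval, beside 33.5%. The interval was found with EnPGC-1 alone at 5 of the 10 genes, which were Mtor, Rptor, Tsc2, Prkaa1 and Prkaa2. Of all 17274 genes with a start site in the RefSeq table, 36.8% had this pattern. Rictor, Tsc1 and Prkag2 were marked in both lists, 3 of 10 genes beside 30.5% of all genes. Rheb and Prkag1 were marked in neither list, beside 29.6%, and 0 of 10 genes were marked in the DMSO list alone, beside 3.09%. With 10 genes, shares this near the background are not a result about them. Only the marks of Mtor and Tsc2 remained in the EnPGC-1 list alone both with equal numbers of intervals and with each list limited to scores at or above its own median. Under both of these settings the start sites of Rptor, Prkaa1 and Prkaa2 had an interval in neither list.

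**Figure D3:**
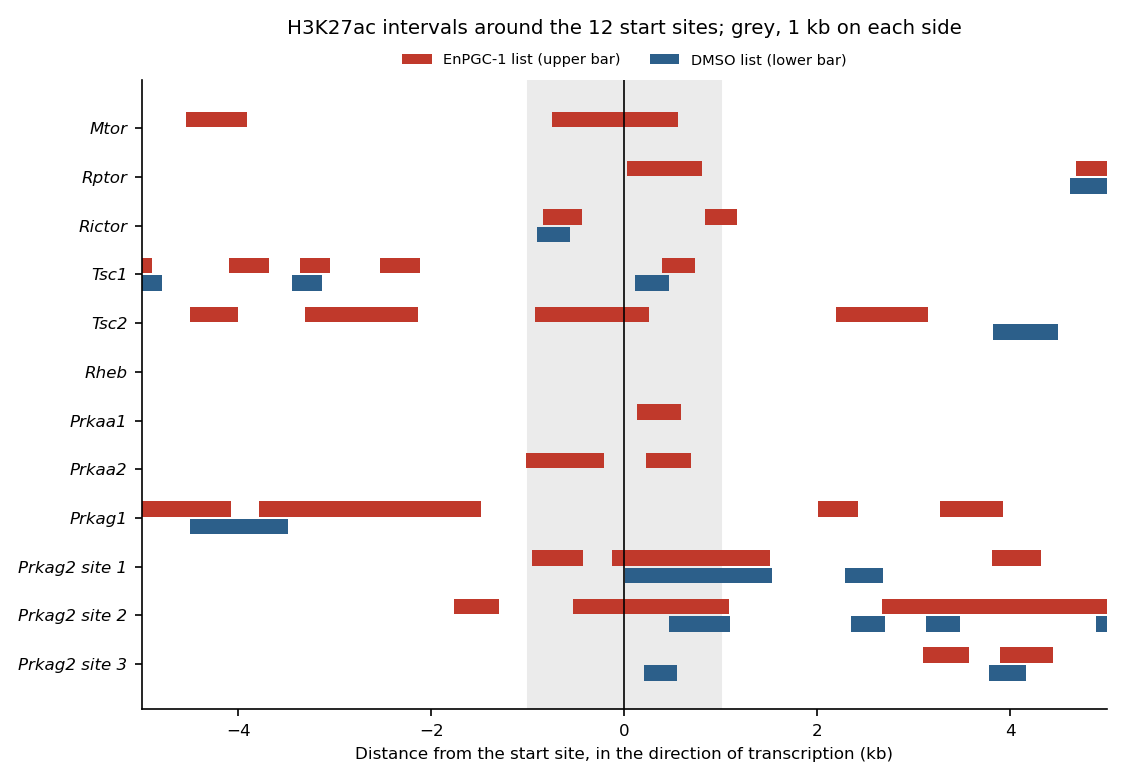
Intervals of the EnPGC-1 list (red, upper bars) and the DMSO list (blue, lower bars) within 5 kb of the 12 annotated start sites, in kb along the direction of transcription, with the window of 1 kb on each side in grey. The start base itself lies inside a red bar at Mtor, Tsc2 and the first 2 sites of Prkag2 and inside a blue bar at none, and the row of Rheb is empty.

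The table holds 12 start sites for these genes, since Prkag2 has 3. The start base lay inside an EnPGC-1 interval at 4 of 12 sites, beside 38.6% of the 21045 start sites of all genes, and inside a DMSO interval at 0 of 12, beside 13.5%. The promoters below are shown because they stand for each pattern, and they run from 250 bases before the start site to 50 after it. Capitals mark matches on either strand to 7 motifs. The ETS motif was searched as CCGGAA, the GC box as GGGCGG, the CCAAT box by the letters of its name and the E-box as CACGTG. The CRE was searched as TGACGTCA, the AP-1 site as TGANTCA and the NRF1 site by its palindromic core. The sequences are from RefSeq on GRCm38.p6 and are written 5′ to 3′ on the coding strand of the gene. Mtor (chr4:148448332-148448631, plus strand) and Tsc2 (chr17:24632578-24632877, minus strand) had the highest-scoring start-site intervals among genes marked with EnPGC-1 alone, and all 300 bases of both lay inside the interval.
Mtor: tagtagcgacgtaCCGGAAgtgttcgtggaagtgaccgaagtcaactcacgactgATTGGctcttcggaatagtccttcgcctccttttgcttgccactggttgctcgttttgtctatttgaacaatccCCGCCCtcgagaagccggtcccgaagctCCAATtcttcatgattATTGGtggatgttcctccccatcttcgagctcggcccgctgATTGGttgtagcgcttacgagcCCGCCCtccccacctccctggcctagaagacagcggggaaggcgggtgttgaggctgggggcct
Tsc2: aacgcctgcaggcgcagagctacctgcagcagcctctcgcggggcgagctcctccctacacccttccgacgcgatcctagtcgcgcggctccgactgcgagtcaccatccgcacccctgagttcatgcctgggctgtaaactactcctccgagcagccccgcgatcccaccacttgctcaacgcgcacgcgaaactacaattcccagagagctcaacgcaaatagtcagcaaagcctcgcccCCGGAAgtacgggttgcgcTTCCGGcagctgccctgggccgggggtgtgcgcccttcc
Rictor (chr15:6708131-6708430, plus strand) and the first start site of Prkag2 (chr5:25100593-25100892, minus strand) had intervals in both lists. At Rictor the intervals lay outside these 300 bases, and at Prkag2 they covered 182 of them with EnPGC-1 and 43 with DMSO.
Rictor: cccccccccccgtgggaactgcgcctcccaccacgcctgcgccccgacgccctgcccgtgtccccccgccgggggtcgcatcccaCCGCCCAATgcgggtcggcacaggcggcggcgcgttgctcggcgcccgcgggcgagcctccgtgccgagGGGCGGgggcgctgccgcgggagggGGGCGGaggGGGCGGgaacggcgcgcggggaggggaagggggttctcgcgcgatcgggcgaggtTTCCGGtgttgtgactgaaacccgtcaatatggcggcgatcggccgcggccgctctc
Prkag2 site 1: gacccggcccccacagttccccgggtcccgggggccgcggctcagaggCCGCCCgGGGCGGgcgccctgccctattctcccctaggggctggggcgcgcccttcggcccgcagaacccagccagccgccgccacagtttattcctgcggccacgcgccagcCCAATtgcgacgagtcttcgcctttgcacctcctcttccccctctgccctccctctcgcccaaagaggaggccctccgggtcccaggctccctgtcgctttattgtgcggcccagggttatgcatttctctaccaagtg
The third start site of Prkag2 (chr5:24908460-24908759, minus strand) had a DMSO interval only. Rheb (chr5:24842312-24842611, minus strand), with no interval nearby, was added for contrast after its values were seen.
Prkag2 site 3: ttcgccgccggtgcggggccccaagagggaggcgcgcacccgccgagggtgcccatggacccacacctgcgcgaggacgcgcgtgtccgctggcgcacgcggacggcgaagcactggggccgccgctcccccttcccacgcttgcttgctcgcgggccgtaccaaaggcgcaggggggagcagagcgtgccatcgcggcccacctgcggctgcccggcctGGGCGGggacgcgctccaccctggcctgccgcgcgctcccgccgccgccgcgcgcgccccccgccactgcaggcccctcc
Rheb: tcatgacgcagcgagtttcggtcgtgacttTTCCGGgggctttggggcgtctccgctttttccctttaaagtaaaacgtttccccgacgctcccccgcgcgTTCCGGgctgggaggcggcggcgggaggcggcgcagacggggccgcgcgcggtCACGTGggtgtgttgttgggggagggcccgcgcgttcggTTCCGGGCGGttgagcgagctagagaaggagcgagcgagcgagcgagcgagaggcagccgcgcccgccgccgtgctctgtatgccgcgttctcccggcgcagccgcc

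Base composition did not separate marked from unmarked start sites among these few genes. The unmarked Rheb promoter had a GC content of 70% and 47 CpG dinucleotides, and the marked Rictor promoter had 78.3% and also 47. The unmarked Prkag1 promoter had 54.7% GC and 16 CpG. The lowest GC content, 41.7% with 13 CpG, was at Rptor, marked with EnPGC-1 alone, and the fewest CpG, 6, at site 2 of Prkag2, marked in both. Over all 21045 promoters the medians were 56.7% GC and 13 CpG. The GC box occurred in 8 of the 12 promoters, against 46.7% of all promoters, and the ETS letters in 5 of 12, against 18.9%. The CCAAT box occurred in 5 of 12, against 38.5%, and the E-box in Rheb alone, against 7.91%. No match was found for the CRE, the NRF1 site or the AP-1 site, which occur in 2.26%, 1.34% and 7.04% of all promoters. In Rictor a GC box overlaps the CCAAT box, in Rheb an ETS match overlaps the GC box, and matches to 1 motif overlap each other in Prkaa1 and at site 2 of Prkag2. The promoters of Rptor and Tsc1 held none of the 7 motifs. These matches describe letters in a window and not bound sites.

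**Figure D4:**
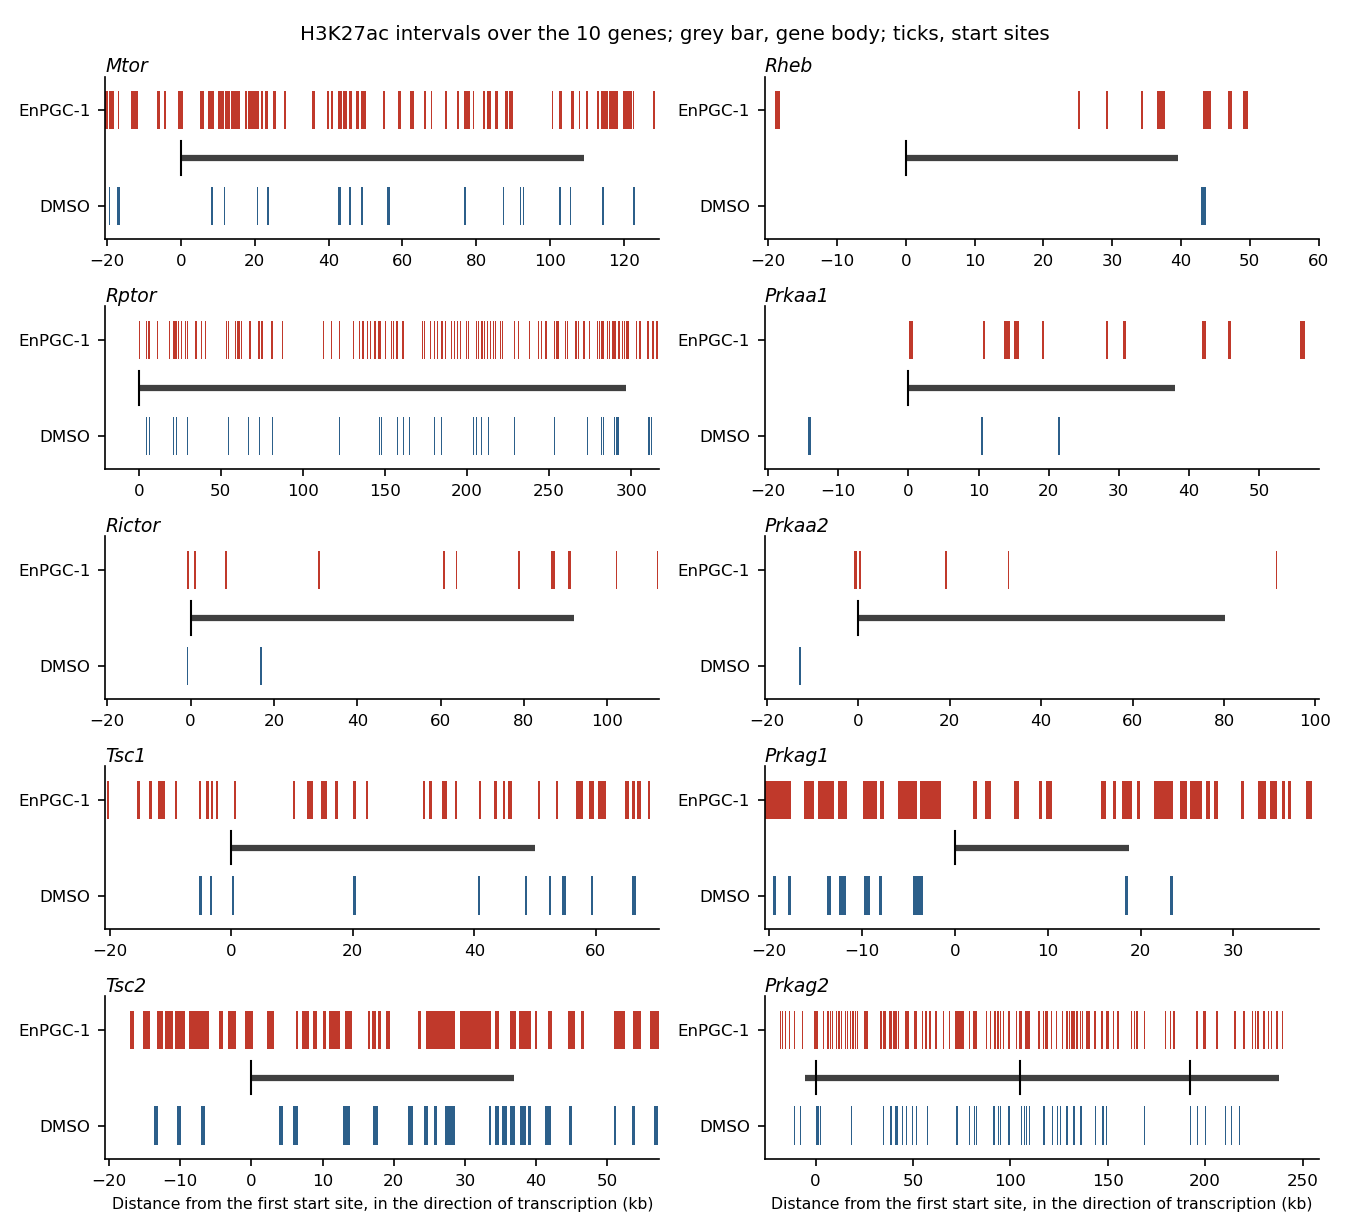
Intervals of the EnPGC-1 list (red, upper rows) and the DMSO list (blue, lower rows) over each gene body (grey bar) and 20 kb on each side, in kb from the first start site along the direction of transcription. Black ticks are annotated start sites. Mtor, Rptor, Tsc2 and Prkag2 carry intervals of both lists in each of 4 equal stretches of the gene body. There are gaps between them, such as 40.1 kb in the DMSO list at Rptor. Rictor, Rheb, Prkaa1 and Prkaa2 carry between 5 and 11 intervals with EnPGC-1 and between 1 and 3 with DMSO.

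Mtor, the gene of the kinase itself, lies on chromosome 4 from 148448582 to 148557685 (mm10, plus strand). Its region of 149 kb held 51 EnPGC-1 intervals, covering 48353 bases or 32.4%, and 18 DMSO intervals, covering 8655 bases or 5.80%. The ratio of covered bases was 5.59, at percentile 67.8 of all protein-coding genes. The start site lay inside an EnPGC-1 interval from 148447827 to 148449137, which had 2 summits and a score of 5.65. The nearest DMSO interval, from 148456831 to 148457397, began 8249 bases downstream. Gene bodies were cut into 4 equal stretches along the direction of transcription. At Mtor the first stretch was the most densely covered by the EnPGC-1 list, at 51.5%, and the later ones had 26.7%, 23.2% and 22.5%. The DMSO list covered 6.63%, 7.07%, 3.63% and 7.0% of the same stretches, so its densest was the second. The highest-scoring EnPGC-1 interval, from 148530396 to 148530843 with a score of 9.06, overlapped no DMSO interval. The highest-scoring DMSO interval, from 148551044 to 148551458 with a score of 4.00, lay wholly inside an EnPGC-1 interval. Of the Mtor intervals, 12 with EnPGC-1 and 3 with DMSO touched another protein-coding gene, among them Angptl7, which lies within Mtor. Without these the ratio was 4.88.

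Rptor encodes raptor, the subunit that recruits substrates to mTORC1, and lies on chromosome 11 from 119602905 to 119899591 (plus strand). It is the longest of the 10 genes, and its region held the most EnPGC-1 intervals, 119, against 36 in the DMSO list. They covered 23.6% and 5.31% of bases, a ratio of 4.45 at percentile 55.6. The interval at the start site, from 119602933 to 119603712, was in the EnPGC-1 list alone and scored 2.51, and the nearest DMSO interval, from 119607521 to 119608144, began 4616 bases downstream. The upstream flank was nearly bare, with 4.09% of bases covered with EnPGC-1 and 0 with DMSO, and the downstream flank was the densest part in both, with 48.8% and 10.4%. Within the gene, the second stretch was the emptiest in both lists, with 14.7% and 2.84%. The longest stretch without an interval was 23.3 kb in the EnPGC-1 list, from 119690971 to 119714251, and lay inside the longest one of the DMSO list, 40.1 kb. The highest-scoring EnPGC-1 interval, from 119917704 to 119919276 with a score of 8.91, lay in the downstream flank, in Chmp6, and overlapped no DMSO interval. The highest-scoring DMSO interval, from 119806802 to 119807350 with a score of 5.77 at percentile 98.8 of its list, overlapped no EnPGC-1 interval. In all, 91 of 119 EnPGC-1 intervals and 7 of 36 DMSO intervals at Rptor had no counterpart in the other list. A counterpart was found for 28 of 119 and 29 of 36, beside 23.1% and 73.7% over the whole lists.

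Rictor, the gene of the subunit that defines mTORC2, lies on chromosome 15 from 6708349 to 6800401 (plus strand) and was sparsely covered. Its region held 11 EnPGC-1 and 2 DMSO intervals, covering 3.64% and 0.703% of bases. The ratio was 5.19, at percentile 64.4. A DMSO interval just upstream of the start site, from 6707480 to 6707817, scored 6.50, at percentile 99.4 of its list. It shared 280 bases with an EnPGC-1 interval from 6707538 to 6707936, which scored 5.46, at percentile 85.9 of its list. This was the only pair of overlapping intervals in the region. The EnPGC-1 list added a second start-site interval from 6709212 to 6709552, 7 further ones in the gene body and 2 in the downstream flank. The last of these ended at 6820596, in the neighbouring gene Osmr. None of the added intervals had a DMSO counterpart. Near the 3' end of the gene lay the highest-scoring of them, from 6798957 to 6799690 with a score of 6.45. No DMSO interval lay in the last 94.8 kb of the region. The overlapping pair remained with equal numbers of intervals and above the median scores, and the second EnPGC-1 interval at the start site, with a score of 3.18, did not.

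Tsc1, which encodes hamartin, the stabilising partner in the TSC complex, lies on chromosome 2 from 28640993 to 28691172 (plus strand). The region held 33 EnPGC-1 and 10 DMSO intervals, covering 19.5% and 4.50% of bases at a ratio of 4.32. Both start-site intervals were weak. The EnPGC-1 interval, from 28641624 to 28641968, scored 1.84, at percentile 12 of its list, and the DMSO interval, from 28641341 to 28641695, scored 1.36, at percentile 0.405. They shared 72 bases, and the start site had no interval in either list once each was limited to its median score. With EnPGC-1 the first stretch of the gene body was the emptiest, with 5.14% of bases covered, and the second the densest, with 24.5%. The DMSO list had 2.83% and 3.21% there and 0 in the third stretch. The densest part in both lists was the downstream flank, which holds Spaca9 and part of Ak8, with 30.7% and 9.63%. It held the highest-scoring interval of each list, from 28697976 to 28699146 with a score of 5.87 in the EnPGC-1 list and from 28707152 to 28707805 with 2.97 in the DMSO list.

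Tsc2 encodes tuberin, the GTPase-activating subunit that turns RHEB off, and lies on chromosome 17 from 24595816 to 24632676 (minus strand). It was the most densely covered of the 10 genes. The region of 76.9 kb held 33 EnPGC-1 and 22 DMSO intervals, covering 35403 and 13419 bases, or 46.1% and 17.5%. These shares stood at percentiles 97.2 and 99.0 of all protein-coding genes. The ratio of 2.64 was the lowest of the set, at percentile 18.7. The first stretch of the gene was the least covered and the last the most in both lists, with 33.0%, 45.4%, 45% and 68.4% in the EnPGC-1 list and 13.8%, 18.4%, 21.9% and 32.3% in the DMSO list. An EnPGC-1 interval of 4378 bp with 6 summits, from 24599010 to 24603387, was the second widest found at these genes. The interval over the start site, from 24632371 to 24633554 with a score of 6.55, overlapped no DMSO interval. The nearest DMSO interval, from 24628132 to 24628807, lay 3820 bases downstream. That start site lies 55 bases from the start site of Nthl1, a DNA repair gene on the other strand, and the interval covers both start sites. Tsc2 itself overlaps Pkd1, and 18 of 33 EnPGC-1 and 11 of 22 DMSO intervals touched a neighbouring gene. Without these the ratio was 2.26. The highest-scoring EnPGC-1 interval, from 24624611 to 24625579 with a score of 7.91, lay within the gene and had no DMSO counterpart. The highest-scoring DMSO interval, from 24639130 to 24639688 with a score of 6.50, reached into Slc9a3r2 and lay wholly inside EnPGC-1 coverage.

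Rheb, the GTPase that switches mTORC1 on, lies on chromosome 5 from 24802823 to 24842361 (minus strand). The region held 8 EnPGC-1 intervals, covering 6.50% of bases, and 1 DMSO interval, covering 0.917%. The ratio of 7.10, at percentile 75.6, was the highest of the set and rests on that single DMSO interval. The start site was bare. The nearest EnPGC-1 interval, from 24860644 to 24861314, lay upstream at -18283 bases from it. The nearest DMSO interval, from 24866735 to 24867052, lay at -24374 bases, outside the region. Within the region the stretch without intervals around the start site was 43.3 kb long with EnPGC-1 and, up to the region's edge, 63.0 kb with DMSO. All 4 EnPGC-1 intervals within the gene lay in its 3' part, in the third and the fourth stretch, with 5.88% and 14.8% of bases covered. The highest-scoring of them, from 24813006 to 24813302, scored 7.05 and had no DMSO counterpart. The DMSO list covered 0 bases of the gene body, and its interval in the downstream flank, from 24798671 to 24799399, overlapped an EnPGC-1 interval by 432 bases.

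Prkaa1 and Prkaa2 encode the alternative catalytic subunits of AMPK, alpha1, the form known from T cells, and alpha2, known from muscle. Both regions were sparsely covered, and both start sites had intervals in the EnPGC-1 list alone. Prkaa1, on chromosome 15 from 5143861 to 5181899 (plus strand), held 10 EnPGC-1 and 3 DMSO intervals, covering 6.39% and 1.47% of bases at a ratio of 4.35. Its start-site interval, from 5143989 to 5144450, scored 3.18, and the nearest DMSO interval, from 5154232 to 5154551, lay 10371 bases downstream. The 1 overlapping pair shared only 112 bases, which is 2.25% of the EnPGC-1 bases and 9.77% of the DMSO bases of the region. With equal numbers of intervals the covered bases were 1096 with EnPGC-1 and 1146 with DMSO, a ratio of 0.956. The 3 EnPGC-1 intervals in the downstream flank lay in Ttc33, among them the highest-scoring of the region, from 5199756 to 5200468 with a score of 8.34, and the ratio without them was 2.93. The highest-scoring DMSO interval, from 5165191 to 5165552 with a score of 3.03, lay in the gene body and overlapped no EnPGC-1 interval. Prkaa2, on chromosome 4 from 105029649 to 105109898 (minus strand), held 5 EnPGC-1 intervals and 1 DMSO interval, covering 1.88% and 0.279% of bases. No base was covered in both lists. EnPGC-1 intervals lay on either side of the start site, from 105109209 to 105109671 with a score of 3.18 and from 105110107 to 105110915 with 2.52, whereas the DMSO interval, from 105122516 to 105122851, lay upstream at -12618 bases and scored 1.76. Within the gene lay the highest-scoring EnPGC-1 interval, from 105076926 to 105077208 with a score of 7.68. The ratio of 6.74 rests on the single DMSO interval, of 336 bases in the upstream flank, and the DMSO list covered 0 bases of the gene body.

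Prkag1 and Prkag2 encode gamma subunits, which bind AMP and ATP. Prkag1, the widely expressed form, lies on chromosome 15 from 98812797 to 98831508 (minus strand) and is the shortest of the 10 genes. Its region held 28 EnPGC-1 and 9 DMSO intervals, covering 25434 and 4564 bases, or 43.3% and 7.77%, at a ratio of 5.57. The flanks carried most of this. In the EnPGC-1 list 62.1% of the upstream flank, 21.8% of the gene body and 44.7% of the downstream flank were covered, and in the DMSO list 19.4%, 1.63% and 1.90%. The upstream flank lies almost wholly in Kmt2d, which encodes a histone methyltransferase. An interval of 5916 bp with 10 summits in Kmt2d, from 98849151 to 98855066, was the widest at any of the 10 genes. It crosses the outer edge of that flank, and part of it lies outside the region. Nearest to the start site was an EnPGC-1 interval at -1485 bases, from 98832993 to 98835295, so the site counted as marked in the EnPGC-1 list with a window of 2500 bp and not with 1 kb. The nearest DMSO interval, from 98834990 to 98836008, lay at -3482 bases. In the downstream flank lay the highest-scoring EnPGC-1 interval, from 98807990 to 98810033 with a score of 7.23, and in Kmt2d that of the DMSO list, from 98844834 to 98845291 with 3.26. All 9 DMSO intervals overlapped EnPGC-1 intervals, beside 73.7% over the whole DMSO list. The EnPGC-1 list also covered 90.2% of their bases, beside 62.0% genome-wide. Without intervals in another gene, 16 EnPGC-1 and 2 DMSO intervals were left and the ratio was 14.3.

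Prkag2 encodes the gamma form known from inherited heart disease in humans and lies on chromosome 5 from 24862735 to 25106282 (minus strand). Its region held 102 EnPGC-1 intervals and 49 DMSO intervals, the most of any of these genes in the DMSO list. They covered 81529 and 28277 bases, or 28.8% and 9.97%, at a ratio of 2.88 and percentile 23.8. The 3 start sites differed. At the first, on the 5' side, EnPGC-1 intervals covered 1664 of the 2001 bases in the window and a DMSO interval 994. The nearest ran from 25099138 to 25100774 in the EnPGC-1 list and from 25099111 to 25100635 in the DMSO list. At the second, inside the gene, the values were 1539 bases, from the EnPGC-1 interval 24994674 to 24996291, and 543 bases, from the DMSO interval 24994660 to 24995295. At the third the EnPGC-1 list covered 0 bases and the DMSO list 349, from 24907962 to 24908310, with a score of 1.36 close to the lowest of the list. The EnPGC-1 interval nearest to the third site, from 24904944 to 24905412, lay 3097 bases downstream. Coverage was lowest in the last stretch of the gene body in both lists, with 20.7% and 4.59%, and the downstream flank, towards Rheb, had 3.36% and 0. The highest-scoring EnPGC-1 interval, from 24981444 to 24982952 with a score of 8.34, overlapped a DMSO interval by 247 bases. The highest-scoring DMSO interval, from 25028882 to 25029235 with a score of 5.77, lay inside an EnPGC-1 interval of 4094 bp.

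Of the intervals of these regions, 113 of 399 in the EnPGC-1 list overlapped a DMSO interval (28.3%, exact binomial 95% interval 23.9 to 33.0) and 120 of 151 in the DMSO list overlapped an EnPGC-1 interval (79.5%, 72.1 to 85.6). These intervals cover counting error only, and neighbouring peaks of 1 gene are not independent. The shares of the whole lists were 23.1% (23.0 to 23.3) and 73.7% (73.4 to 74.0). Counted in bases, 17.2% of the EnPGC-1 bases and 65.5% of the DMSO bases lay in both lists, beside 15.5% and 62.0% genome-wide. With equal numbers of intervals, 35.3% of EnPGC-1 and 35.8% of DMSO intervals of these regions overlapped. Whole-list shares were not computed under that setting, so the change cannot be ascribed to these genes. EnPGC-1 intervals with a DMSO counterpart had a median width of 938 bp, against 520 bp for those without, and 51.3% held several summits against 22.4%. Their median scores were 3.69 and 3.51. Width and overlap are not separate measures, since a wider interval meets another more easily. DMSO intervals with and without an EnPGC-1 counterpart had the same median score of 2.16. The 31 DMSO intervals without a counterpart comprised 10 at Prkag2, 7 at Rptor, 4 at Mtor, 3 each at Tsc1 and Tsc2, 2 at Prkaa1 and 1 each at Rictor and Prkaa2.

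The other genes of the pathway numbered 71, of which 59 had a start site in the table. More bases were covered in the EnPGC-1 list at all 71, with a ratio of 2 or more at 69, beside 91.6% of all genes, and below 1 at 0, beside 1.59%. Among these 69 are 9 that had 0 covered bases in the DMSO list. The median ratio of the 71 was 3.70, with those 9 placed at the top, against 4.11 for all genes, treated likewise. Start sites had intervals with EnPGC-1 alone at 28, beside 36.8% of all genes, and in both lists at 20, beside 30.5%. They had one in the DMSO list alone at 4, beside 3.09%, and in neither at 7, beside 29.6%. These counts were not tested. Among partners of the mTOR complexes, Akt1s1, which encodes the mTORC1 inhibitor PRAS40, had 50.8% of bases covered with EnPGC-1 and 19.7% with DMSO. Prr5, of mTORC2, had 45.3% and 17.3%, and the mTOR inhibitor gene Deptor had 4.64% and 1.33%. Growth factor inputs were widely covered at Akt1, with 57.4% and 23.3%, and at the PI3-kinase gene Pik3cd, with 41.3% and 8.67%.

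All 4 pathway genes marked at the start site in the DMSO list alone belong to the lysosomal Rag and Ragulator machinery, which brings mTORC1 to the lysosome. They are the Ragulator genes Lamtor1 and Lamtor4 and the folliculin complex genes Flcn and Fnip2, 4 of 12 genes of that group with a start site, beside 3.09% of all genes, and no test of the group was made. Over their whole regions the EnPGC-1 list still covered more bases, with 5.65% against 2.46% at Lamtor1, 23.5% against 7.72% at Lamtor4, 24.5% against 13.5% at Flcn and 9.25% against 3.46% at Fnip2. In the same group, Lamtor2 had 29.1% and 10.3%, with a start site marked by EnPGC-1 intervals alone, and Fnip1 had 1.14% and 0. Of the amino acid sensing genes, Wdr24 of GATOR2 had 53.4% and 14.1%, the arginine sensor gene Castor1 45.7% and 11.7%, and Sesn3, which encodes a sestrin, 6.97% and 3.17%.

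In the group of the other AMPK subunits and upstream kinases, 8 of 10 start sites carried an interval with EnPGC-1 alone and the other 2 with both. Of all genes, 36.8% and 30.5% had these patterns, and no test of the group was made. The group leaves out Prkaa1, Prkaa2, Prkag1 and Prkag2, of which Prkag1 was marked in neither list. Stk11, which encodes the upstream kinase LKB1, had 46.5% and 22% of bases covered and was marked in both. Camkk1, the gene of a calcium-dependent upstream kinase, had 33.5% and 8.64%, and Stradb, of a pseudokinase partner of LKB1, 0.482% and 0. Among targets and outputs, Rps6kb2, an S6 kinase gene, had 44.8% and 6.08%, and Tfeb, a transcription factor gene of lysosome biogenesis, 39.8% and 11.0%. Mff, a mitochondrial fission gene and AMPK target, had nearly equal coverage, 1.21% and 1.16%.

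**Figure D5:**
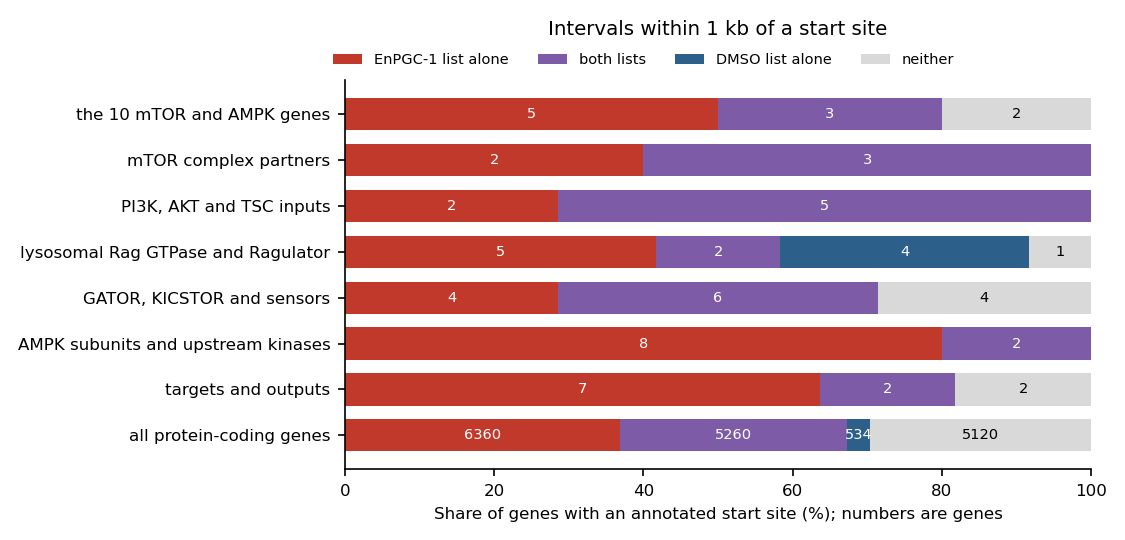
Share of genes (horizontal axis, in percent) whose start site had an interval within 1 kb in the EnPGC-1 list alone (red), in both lists (purple), in the DMSO list alone (blue) or in neither (grey), for the 10 mTOR and AMPK genes, groups of other pathway genes and all protein-coding genes. Numbers in the bars are genes, and the blue part holds 4 genes of the lysosomal group and 534 of all genes.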

How the data were processed

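H3K27ac ChIP, IgG ChIP and input DNA were sequenced. Per the submitters' processing notes, the tools included MACS2 2.2.2.20160309, ChIPseeker 11.16.1, Bowtie 1.1.2, Trimmomatic 0.38 and Picard 0.118, and the build was mm10. Calling parameters, control and pooling were not given in the sources used here. The authors' deposited score per interval was read as −log10 of a q-value, since its lowest value, 1.31 in either list, lies just past that of a q of 0.05.

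Entries repeating 1 interval were combined, keeping the highest score, which turned 329623 EnPGC-1 entries into 253423 intervals and 84538 DMSO entries into 81522. Genes, start sites and promoters came from RefSeq tables of GRCm38.p6, and mm10 is the same assembly. All 10 genes matched, as did 71 of 71 pathway genes, and 17274 of 21631 protein-coding genes had a start site. Exons and introns were not used here. An overlap needed 1 bp, and percentiles describe all genes. Intervals that cross a region's edge were counted whole, and their bases only inside it. Coverage and counts were computed with Python 3.11.15, numpy 2.4.6 and scipy 1.17.1, and 0 of 200 simulated lists gave another answer than counting each base.

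The members and lists were chosen with earlier results of these data known. Named were all 10 genes and, per pathway group, the 2 with the largest and the 1 with the smallest difference in covered bases, plus any marked at the start in the DMSO list alone. A gene that this rule names is not reported here. The interval within each region with the highest score and the one nearest the start site were named, and others were chosen after their values were seen. No test was made, since each treatment has 1 list.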

Additional observations from a re-analysis of the deposited data

How the results depend on the processing

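The median ratio of covered bases over the 10 genes, 4.82, was 3.92 when each list was limited to scores from its own median up, 1.67 with equal numbers of highest-scoring intervals, 6.84 with intervals of 500 bp or more and 5.2 with intervals within 1000 bp joined. It was 5.25 without flanks, 4.11 with flanks of 50 kb, 4.97 without intervals in another protein-coding gene, an alternative chosen after seeing the data, and 3.81 when bases were summed. In the first 4 settings the ratio of interval numbers was 2.12, 0.921, 3.82 and 1.93, the share of EnPGC-1 intervals with a DMSO counterpart 22.3%, 35.3%, 18.1% and 35.5%, and the share of DMSO intervals with an EnPGC-1 counterpart 47.3%, 35.8%, 67.7% and 80.3%. When a counterpart had to cover 50% of an interval, the shares were 12.5% and 69.5%. The ratios and shares under these settings were computed for the 10 genes only. Without the values of all genes, their changes are not a result about these genes. Genes marked at the start site in the EnPGC-1 list alone numbered 3 above the median scores and 2 with equal numbers, where 1 gene, Tsc1, was marked in the DMSO list alone. They numbered 4 to 6 under the other settings run, which were a length minimum, joining, and windows of 500 bp and 2500 bp. Equal numbers keep 81522 EnPGC-1 intervals, all with scores of 4.21 or more, and every DMSO interval. Not all EnPGC-1 intervals tied at 4.21 were kept, and the wider ones were taken first. The whole lists then hold the same number of intervals. In covered bases of single genes, Prkaa1 alone turned, to 0.956 with equal numbers. Interval numbers with equal list sizes were, besides Prkaa1 (2 and 3), lower for EnPGC-1 at Tsc1 (8 and 10), Tsc2 (12 and 22) and Prkag2 (37 and 49), and at Tsc2 above the median scores (16 and 17). No ratio was defined where the DMSO list had 0 bases, at Rheb without flanks, at Prkaa1 with intervals of 500 bp or more, and at Prkaa2 in both of these settings and above the median scores. No paired analysis was possible because each treatment has 1 deposited list, and for the same reason no replicate could be left out. The depth behind the lists is unknown.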
